A study of Mus musculus with 2 samples.

Results

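The genes described here encode the enzymes and transporters that take glucose to pyruvate and lactate (glycolysis) and pyruvate into the citrate cycle of the mitochondria. They are 39 named genes, found by symbol in the GENCODE M21 gene tables of both libraries, among 55536 gene IDs and 22028 protein-coding genes. The symbol Aldoa stands on 2 rows, so 40 rows carry a name of the list; the row with more counts is used, and the other held 68 estimated counts in replicate 2 and 58 in replicate 1. The series measured polyadenylated RNA of neural tube from healthy B6NCrl mouse embryos of mixed sex at embryonic day 12.5. It has 1 group of 2 libraries, each from its own pool of embryos: replicate 2 from 88 embryos and replicate 1 from 120 embryos, both listed under 1 donor entry. No transgene, mutation or treatment is named. Each library was made from 10 ng of total RNA primed with oligo-dT and cut by tagmentation, with ERCC spike-ins (synthetic RNAs) added. Without a second condition no test between conditions could be made, and the libraries are set side by side as replicate 2 over replicate 1.

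Replicate 2 held 35461403 estimated counts and replicate 1 held 33529531, of which 2.89% and 2.99% fell on the spike-ins. Estimated counts are reads per gene, where a read that fits more than 1 gene is divided by a model. TPM is that count per effective transcript length, scaled to a fixed sum, so levels of different genes can be compared in it. All 12 pan-neuronal and all 12 neural progenitor markers reached 1 TPM in both libraries, and so did markers of other tissues. Skeletal muscle markers summed to 294 TPM in replicate 2 and 400.5 TPM in replicate 1, and erythroid markers to 13744 and 14339 TPM. In bulk tissue, fewer cells of a type and less RNA per cell cannot be told apart.

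Glycolysis runs in the cytosol. Hexokinase traps glucose as a phosphate, phosphofructokinase commits it, aldolase splits it, and the steps from glyceraldehyde-3-phosphate dehydrogenase to pyruvate kinase yield ATP. Pyruvate is then reduced to lactate by lactate dehydrogenase, which regenerates NAD and sends lactate out through monocarboxylate transporters, or is oxidised to acetyl-CoA by the pyruvate dehydrogenase complex and burned in the citrate cycle. Several steps have isoenzymes with tissue preferences. Hk1, Aldoc and Eno2 are known from adult brain, Pgam2 and Eno3 from muscle, and Hk2, Ldha and the M2 form of pyruvate kinase from growing and embryonic tissue.

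All 39 genes reached 1 TPM in both libraries, a level reached by 60.9% of protein-coding genes. At 10 TPM the count was 37 of 39 genes, against 41.7% of protein-coding genes, and at 100 TPM it was 16 of 39, against 7.30%. Gapdh, Pkm and Eno1 were among the 50 highest protein-coding genes, 10 members among the 500 highest and 18 among the 2000 highest. The 39 genes together took 0.925% of gene counts in replicate 2 and 0.954% in replicate 1. Ordered by mean TPM, 13 of the 38 pairs of neighbours had ranges over the 2 libraries that overlapped. For such pairs the ranges alone do not fix the order. Gapdh and Pkm, the first and second, are such a pair, but Gapdh was the higher within each library. It had 1266 TPM against 1208 TPM in replicate 2, and 1347 TPM against 1285 TPM in replicate 1. Hk2 (6.42 TPM in replicate 2 and 8.07 TPM in replicate 1) and Pgam2 (6.10 and 11.0 TPM) were the lowest.

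**Figure D1:**
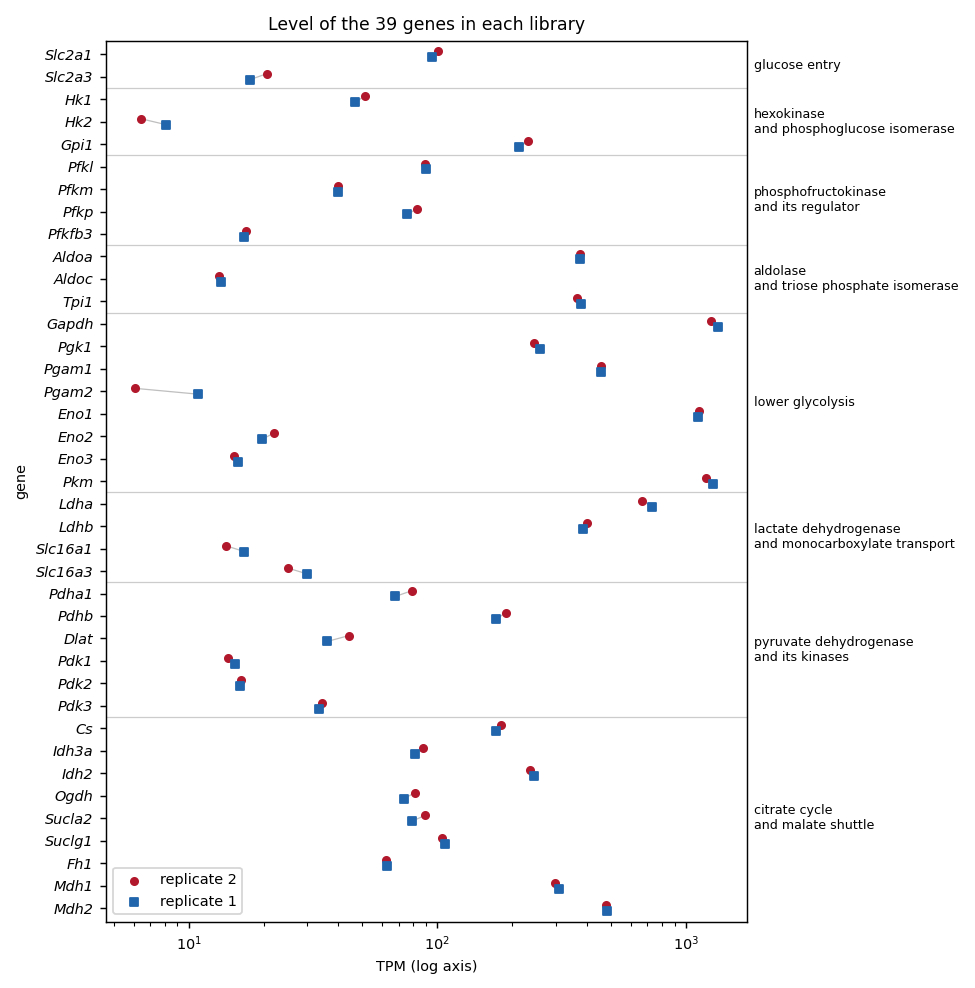
TPM (log axis) of the 39 genes in replicate 2 (red circles) and replicate 1 (blue squares), ordered by step of the pathway. Gapdh, Pkm and Eno1 stand highest in both libraries and Hk2 and Pgam2 lowest, and the 2 libraries lie close together for most genes.

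Glucose enters through facilitative transporters. Slc2a1, the transporter of the blood-brain barrier and of many embryonic cells (chromosome 4, 119108711 to 119137983, plus strand, mm10), had 101 TPM in replicate 2 and 95.2 TPM in replicate 1. Slc2a3, the high-affinity transporter of neurons, had 20.6 and 17.7 TPM. Slc2a1 was thus the higher in both libraries, by 2.36 ± 0.10 on the log2 scale (SD, n = 2). The size of that gap depends on which transcripts are counted. Of Slc2a1 TPM, 55.3% ± 0.997 was placed on Slc2a1-204, a transcript annotated as a target of nonsense-mediated decay, and 44.2% ± 1.21 on the coding Slc2a1-201. With protein-coding transcripts alone the log2 ratio was 1.22 ± 0.14. Of the summed TPM of 4 glucose transporters, Slc2a4, the insulin-responsive transporter, took 7.66% ± 0.274 and Slc2a2, the transporter of liver and pancreas, 0.0465% ± 0.0311.

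Hexokinase was mostly Hk1, the form that binds mitochondria in brain. It had 51.1 TPM in replicate 2 and 46.9 TPM in replicate 1, against 6.42 and 8.07 TPM for Hk2, the inducible form. The libraries of the 2 genes did not overlap, and Hk1 stood 2.76 ± 0.32 above Hk2 on the log2 scale. Hk3 and Hkdc1 were below 1 TPM, with Hk3 at 0.660 TPM in replicate 2 and 0.630 TPM in replicate 1 and Hkdc1 at 0.370 and 0.130 TPM. Part of the Hk2 level came from Hk2-202, a noncoding transcript of 594 bases that held 41.4% ± 5.19 of Hk2 TPM on only 6.12% ± 1.23 of its counts. Over protein-coding transcripts the Hk1 over Hk2 ratio was larger, at 3.52 ± 0.18. Hk1 itself was divided between Hk1-202 (73.4% of TPM in replicate 2 and 64.6% in replicate 1) and Hk1-201 (24.5% and 31.9%), so the first led in both libraries. Gpi1, which turns glucose-6-phosphate into fructose-6-phosphate, had 232 TPM in replicate 2 and 214 TPM in replicate 1. Over protein-coding transcripts it had 108 and 106 TPM, and Gpi1-207, a decay target, held 20.6% ± 0.431 of its TPM.

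Phosphofructokinase is a tetramer of liver, muscle and platelet type subunits, all of which were present. Pfkl, the liver type, had 89.4 TPM in replicate 2 and 89.8 TPM in replicate 1. Pfkp, the platelet type, had 83.0 and 75.8 TPM. Pfkm, the muscle type, had 39.8 TPM in each. Pfkl thus led with 42.9% ± 1.12 of the summed TPM, before Pfkp (39.1% in replicate 2 and 36.9% in replicate 1) and Pfkm with 19.1% ± 0.441. The order of Pfkp and Pfkm turns on a short transcript: Pfkp-210, an intron-retaining transcript of 702 bases, held 46.0% ± 0.0990 of Pfkp TPM, and the coding Pfkp-201 21.5% ± 1.90. Counting protein-coding transcripts alone, Pfkl took 57.3% ± 0.104, Pfkm 28.4% ± 0.209 and Pfkp 14.4% ± 0.313. Pfkm changed its leading transcript between the libraries. Pfkm-205 held 65.6% of Pfkm TPM in replicate 2 and 49.0% in replicate 1, and Pfkm-201 held 30.6% and 49.7%, with deposited posterior SDs of 113 to 172 counts for these 2 transcripts. Pfkfb3, a bifunctional enzyme that makes the phosphofructokinase activator fructose-2,6-bisphosphate, had 17.0 and 16.6 TPM. Among the 4 genes of that enzyme family Pfkfb3 took 32.9% ± 0.729 of the TPM, next to Pfkfb4 with 36.0% ± 0.503, Pfkfb2 with 23.9% ± 1.65 and Pfkfb1 with 7.25% ± 1.87. Over protein-coding transcripts the first 2 changed order, with 41.4% ± 0.539 for Pfkfb3 and 28.7% ± 0.598 for Pfkfb4.

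Of the aldolase pair compared, the higher gene was Aldoa, the ubiquitous and muscle form (chromosome 7, 126795234 to 126800751, minus strand). Aldoa had 376 TPM in replicate 2 and 374 TPM in replicate 1, against 13.3 and 13.5 TPM for Aldoc, the form of adult astrocytes and Purkinje cells. The log2 ratio of Aldoa over Aldoc was 4.81 ± 0.02, the smallest spread of the 4 pairs, and it stayed at 4.87 ± 0.07 over protein-coding transcripts. Tpi1, which interconverts the 2 triose phosphates, stood near Aldoa at 364 and 379.9 TPM.

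The highest levels of the pathway lay in its later steps. Gapdh, which oxidises glyceraldehyde-3-phosphate (chromosome 6, 125161715 to 125166467, minus strand), had 1266 TPM in replicate 2 and 1347 TPM in replicate 1, the highest of the 39 genes. This rank depends on a short transcript. Gapdh-208, a noncoding transcript of 483 bases, was given 63.2% ± 0.495 of Gapdh TPM on 33.3% ± 0.548 of its counts, while the coding Gapdh-203, of 1420 bases, held 35.4% ± 1.18 of TPM and 64.1% ± 1.58 of counts. Over protein-coding transcripts Gapdh stood at 471 ± 12.9 TPM, the fourth of the 39 genes, after Pkm (1228 ± 49.4 TPM), Eno1 (1096 ± 13.4 TPM) and Ldha (691 ± 41.7 TPM). The summed level of the hexokinase step was lower than Gapdh by either reading, with a log2 ratio of Gapdh over Hk1 and Hk2 of 4.54 ± 0.11 over all transcripts and 3.17 ± 0.10 over coding ones.

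Pgk1, the X-linked phosphoglycerate kinase that makes the first ATP of the pathway, had 245 TPM in replicate 2 and 259.8 TPM in replicate 1. Pgam1, the phosphoglycerate mutase of most tissues, had 455 and 456 TPM, against 6.10 and 11.0 TPM for Pgam2, the muscle form. Pgam2 rested on 98 and 170 counts, and the Pgam1 over Pgam2 log2 ratio of 5.80 ± 0.60 had the widest spread of all 8 pairs compared. Enolase was nearly all Eno1, the ubiquitous form (chromosome 4, 150236721 to 150248879, plus strand), with 1129 TPM in replicate 2 and 1118 TPM in replicate 1. Eno2, the neuron-specific enolase, had 22.0 and 19.8 TPM, and Eno3, the muscle form, 15.2 and 15.8 TPM. Eno1 held 96.9% ± 0.0748 of the summed TPM of the 3 genes, Eno2 1.80% ± 0.119 and Eno3 1.34% ± 0.0443. Over protein-coding transcripts Eno2 and Eno3 changed order, with 1.07% ± 0.105 for Eno2 and 1.38% ± 0.0510 for Eno3. Eno1 stood above Eno2 by 5.75 ± 0.10 on the log2 scale and above Eno3 by 6.18 ± 0.05. Only part of the Eno2 level was coding. Its leading transcript by mean was Eno2-203, an intron-retaining form with 26.7% of TPM in replicate 2 and 26.1% in replicate 1, and coding transcripts held 57.4% ± 2.11, and the coding Eno1 over Eno2 ratio was 6.52 ± 0.14. Replicate 2 by itself had another leader, Eno2-201, with 34.1% of TPM there and 16.9% in replicate 1. Bpgm, which makes 2,3-bisphosphoglycerate and is highest in red cells, had 53.2 and 48.6 TPM.

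Pkm encodes both muscle-type pyruvate kinases, which differ by 1 exon of equal length. The upstream exon gives the M1 form, constitutively active and typical of adult muscle and brain. The downstream exon gives the M2 form, which is under allosteric control and typical of embryonic and dividing cells. Both exons are shown because they tell the forms apart. The division of Pkm given below is the deposited estimate over whole transcripts, not a count of reads on these exons. Pkm-201 has 2432 bases and Pkm-202 has 2041, so the transcripts also differ outside these exons. The 2 exons lie on the plus strand of chromosome 9 (mm10), 372 bases apart. Each is exon 9 of its transcript and 167 bases long. Sequences are those of the GENCODE M21 transcripts, 5′ to 3′, and capitals mark the 64 positions at which the 2 exons differ when set base against base, an identity of 61.7%.
M1 exon, chr9:59675029-59675195, in Pkm-202: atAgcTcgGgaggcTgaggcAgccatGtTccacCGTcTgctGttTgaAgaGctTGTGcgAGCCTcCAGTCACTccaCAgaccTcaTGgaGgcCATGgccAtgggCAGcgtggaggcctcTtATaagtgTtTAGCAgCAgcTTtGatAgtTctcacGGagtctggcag
M2 exon, chr9:59675568-59675734, in Pkm-201: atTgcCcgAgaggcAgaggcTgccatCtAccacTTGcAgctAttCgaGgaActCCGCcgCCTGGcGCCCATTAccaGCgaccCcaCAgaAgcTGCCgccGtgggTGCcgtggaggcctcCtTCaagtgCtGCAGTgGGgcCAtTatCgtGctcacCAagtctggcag
Pkm had 1208 TPM in replicate 2 and 1285 TPM in replicate 1, with 57674 and 59165 counts, the most of any of the 39 genes. Pkm-201, the transcript with the M2 exon, held 68.9% of Pkm TPM in replicate 2 and 68.3% in replicate 1, and Pkm-202, with the M1 exon, 29.2% and 29.6%. Of the TPM on transcripts with either exon, those with the M2 exon took 70.1% and 69.4%, a mean of 69.8% ± 0.531. Both libraries thus held both forms, with the M2 exon in the larger share, and differed in it by less than a percentage point. A further 8 Pkm transcripts that hold neither exon took 1.73% and 1.57% of TPM. Pklr, the pyruvate kinase of liver and red cells, had 0.340 and 0.360 TPM.

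At lactate dehydrogenase both subunits were high. Ldha, whose subunit is known for reducing pyruvate (chromosome 7, 46841475 to 46855627, plus strand), had 668 TPM in replicate 2 and 728 TPM in replicate 1. Ldhb, the heart-type subunit (chromosome 6, 142490249 to 142507957, minus strand), had 401 and 387 TPM. The libraries did not overlap, and Ldha stood 0.82 ± 0.12 above Ldhb on the log2 scale, the closest of the 4 isoenzyme pairs. It took 63.9% ± 1.98 of the summed lactate dehydrogenase TPM, and Ldhc, the testis form, 0.0113% ± 0.0094. Both genes were nearly all coding: Ldha-202 held 97.1% ± 0.318 of Ldha TPM and Ldhb-201 90.2% ± 0.905 of Ldhb TPM.

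The transporters that carry lactate were far lower. Slc16a3 (MCT4), a low-affinity exporter known from glycolytic muscle and astrocytes, had 25.1 TPM in replicate 2 and 30.0 TPM in replicate 1. Slc16a1 (MCT1), the widely expressed carrier, had 14.1 and 16.7 TPM. Slc16a3 was the higher in both libraries, and Slc16a1 over Slc16a3 came to -0.84 ± 0.01 on the log2 scale, the only one of the 8 pairs below 0. Of 4 monocarboxylate transporter genes Slc16a3 held 58.6% ± 1.30 of the TPM, Slc16a1 32.7% ± 0.539, the neuronal Slc16a7 (MCT2) 8.36% ± 1.96 and Slc16a8 (MCT3) 0.334% ± 0.116.

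**Figure D2:**
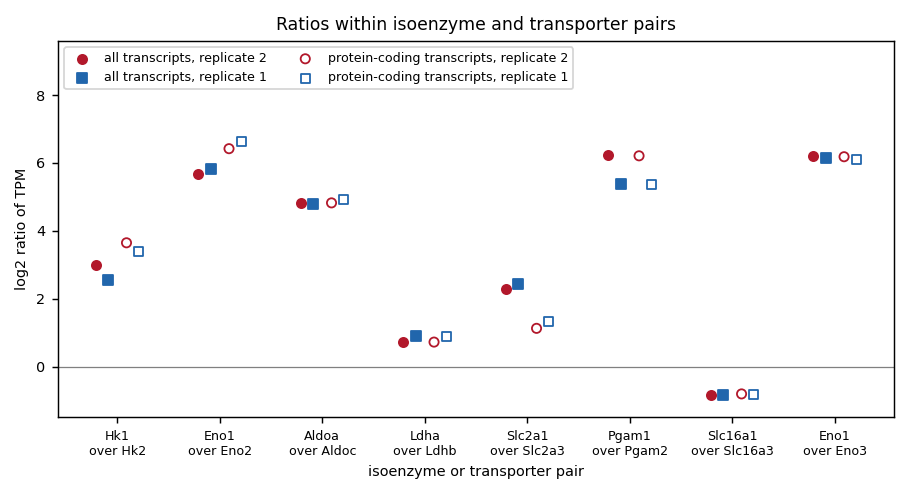
Log2 ratio of TPM within 8 pairs of isoenzymes or transporters, over all transcripts (filled) and over protein-coding transcripts (open), in replicate 2 (red circles) and replicate 1 (blue squares). In each setting shown, Slc16a1 over Slc16a3 is the only pair below 0, and the transcripts counted move Hk1 over Hk2, Eno1 over Eno2 and Slc2a1 over Slc2a3.

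Pyruvate enters the mitochondrion through the carrier of Mpc1 and Mpc2, which had 132 and 114 TPM in replicate 2 and 127 and 111 TPM in replicate 1. The pyruvate dehydrogenase complex then oxidises it. Its E1 beta subunit gene Pdhb had 188 TPM in replicate 2 and 173 TPM in replicate 1, and the X-linked E1 alpha subunit gene Pdha1 79.2 and 67.8 TPM. The 2 subunits form a tetramer in equal numbers, but their RNA levels were unequal in both libraries, with Pdha1 over Pdhb at -1.30 ± 0.07 on the log2 scale and at -1.11 ± 0.06 over protein-coding transcripts. Dlat, the E2 acetyltransferase core, had 44.2 and 36.2 TPM. Of Dlat TPM, 25.8% ± 2.39 lay on the noncoding Dlat-202, which held 5.90% ± 0.520 of its counts.

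The complex is switched off by pyruvate dehydrogenase kinases. Pdk3 led with 34.4 TPM in replicate 2 and 33.3 TPM in replicate 1, before Pdk2, the widespread form, with 16.2 and 16.1 TPM and Pdk1, a target of hypoxia signalling, with 14.4 and 15.3 TPM. Of the summed TPM of 4 kinase genes Pdk3 took 51.8% ± 1.03, Pdk2 24.7% ± 0.0397, Pdk1 21.9% in replicate 2 and 23.5% in replicate 1, and Pdk4, known from fasting muscle and liver, 0.787% ± 0.117. Pdk3 kept its place over protein-coding transcripts with 59.3% ± 0.170, while Pdk1 had 12.5% ± 0.929. Coding transcripts held 47.8% ± 7.42 of Pdk1 TPM.

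Of the citrate cycle members, Fh1 had the lowest TPM over all transcripts and Mdh2 the highest. Malate dehydrogenase was the highest: Mdh2, the mitochondrial form, had 478 TPM in replicate 2 and 479.7 TPM in replicate 1, and Mdh1, its cytosolic partner in the malate-aspartate shuttle, 299 and 309.8 TPM. Mdh2 exceeded Mdh1 by 0.65 ± 0.03 on the log2 scale. Idh2, the NADP-linked mitochondrial isocitrate dehydrogenase, had 236 and 245 TPM, and Cs, citrate synthase, 181 and 173 TPM. Idh3a, the catalytic subunit of the NAD-linked enzyme, had 87.4 and 81.6 TPM and Ogdh, the first subunit of the 2-oxoglutarate dehydrogenase complex, 81.1 and 73.4 TPM. Both thus stood below Idh2 and Cs in each library. Suclg1, the alpha subunit shared by both succinyl-CoA synthetases, had 105 and 108 TPM, and Sucla2, the beta subunit of the ADP-forming one, 89.5 and 79.1 TPM. Suclg2, the beta subunit of the GDP-forming one and not among the 39, had 18.7 and 20.8 TPM, so the ADP-forming subunit was the higher in both libraries. Fh1, fumarase, had 62.0 and 62.9 TPM. Over protein-coding transcripts Idh3a was below it, at 48.0 TPM in replicate 2 and 45.9 TPM in replicate 1 against 60.6 and 59.8 TPM for Fh1.

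Idh3a and Mdh2 carried much TPM on forms that do not encode the full protein. Idh3a-203, an intron-retaining transcript, held 39.6% ± 3.34 of Idh3a TPM beside 43.3% ± 0.148 on the coding Idh3a-201. Mdh2-203, a decay target, held 26.7% ± 0.799 of Mdh2 TPM beside 71.0% ± 0.679 on Mdh2-201. Over all 39 genes, 296 annotated transcripts were listed and 190 had counts in both libraries. The leading transcript was protein-coding for 35 genes and not for 4, which were Gapdh, Slc2a1, Pfkp and Eno2. It held 90% or more of TPM in both libraries for 14 genes. Coding transcripts held 90% or more of TPM on average for 24 genes and under 75% for 10. The same shares over all protein-coding genes were not computed, so none of these counts is read as particular to the members. The deposited division among transcripts is an estimate, and the preparation's own coverage along the transcripts was not tested as a source of it.

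**Figure D3:**
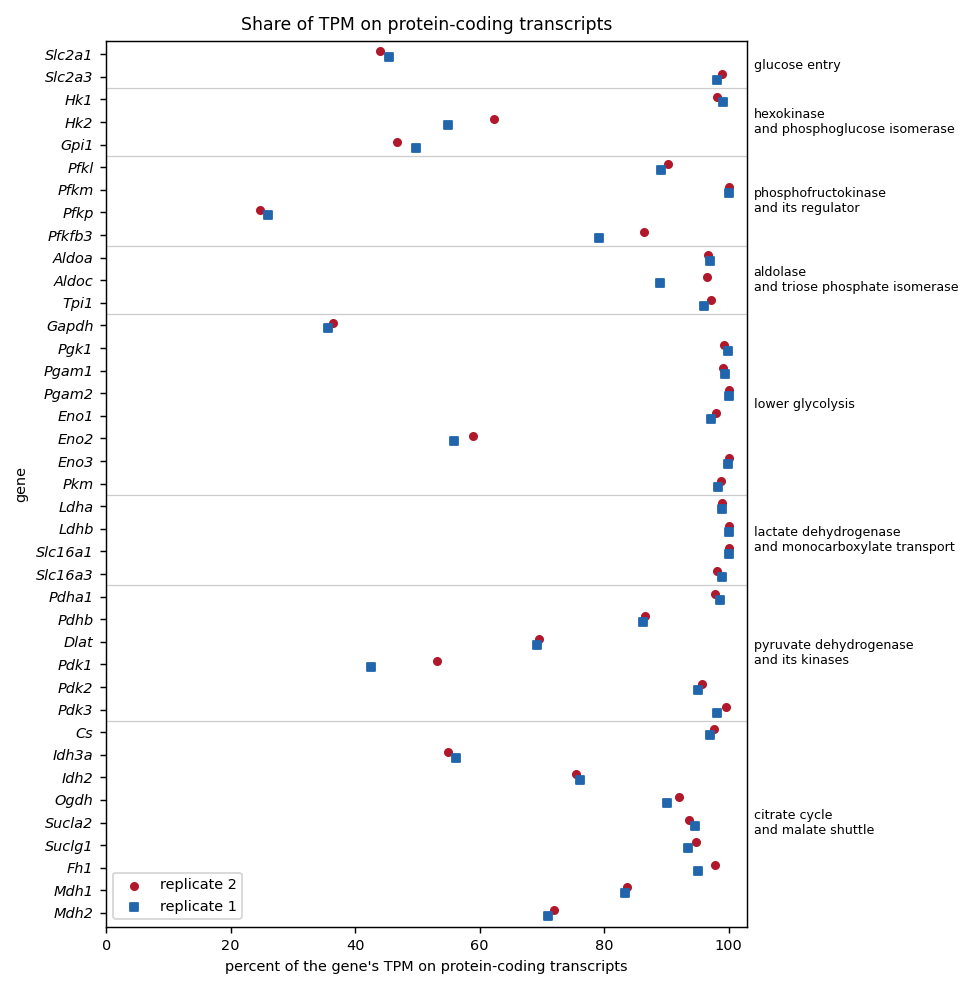
Percent of each gene's TPM placed on transcripts annotated as protein-coding, in replicate 2 (red circles) and replicate 1 (blue squares). Most genes lie near 100%, while Pfkp, Gapdh, Slc2a1, Gpi1, Pdk1, Idh3a, Eno2 and Hk2 lie well below, in both libraries.

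Other genes of the same pathways were taken from lists chosen with the members. Of 18 other isoenzymes of glycolysis 9 reached 1 TPM in both libraries. The highest were Bpgm, Pfkfb4 (18.1 TPM in replicate 2 and 18.7 TPM in replicate 1), Pfkfb2 (12.7 and 11.7 TPM), Slc2a4 (9.82 and 9.63 TPM), Tigar, a fructose-2,6-bisphosphatase (6.51 and 6.20 TPM), and Slc16a7 (4.24 and 3.52 TPM). Among the lowest were Slc2a2 and Pgk2, and Pgk2, the testis phosphoglycerate kinase, had 0 counts in both. The median over the 18 was 0.875 TPM, while each of the 39 members reached 5 TPM in both libraries over all transcripts. Both lists were chosen with earlier results of these data known, so this contrast is not a result about the members. Over protein-coding transcripts Hk2 was below 5 TPM, at 4 TPM in replicate 2 and 4.43 TPM in replicate 1. Of 19 other pyruvate and citrate cycle genes 18 reached 1 TPM, all but Pdk4, and 11 reached 100 TPM, with a median of 109.9 TPM. Idh1, the cytosolic NADP-linked isocitrate dehydrogenase (323 and 312 TPM), and Sdhb, the iron-sulphur subunit of succinate dehydrogenase (318 and 321 TPM), led it.

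Of the genes of glucose output some were near 0 and others were not. G6pc, the glucose-6-phosphatase of liver and kidney, had 0 counts in both libraries, Pck1, the cytosolic phosphoenolpyruvate carboxykinase, 0 in replicate 2 and 1 in replicate 1, and Fbp2, the muscle fructose-1,6-bisphosphatase, 2 and 0. A count of 0 allows up to 3 counts in a library, counting error only. G6pc3, the widespread glucose-6-phosphatase, had 24.3 TPM in replicate 2 and 23.2 TPM in replicate 1, and Pck2, the mitochondrial phosphoenolpyruvate carboxykinase, 14.3 and 16.4 TPM, or 6.68 and 8.08 TPM over protein-coding transcripts; both were chosen after their values were seen. In the pentose phosphate pathway, Taldo1 (transaldolase, 288 TPM in replicate 2 and 295 TPM in replicate 1), Tkt (transketolase, 169 and 170.4 TPM), Pgls (156 and 169.9 TPM) and Pgd (100.3 and 99.7 TPM) had the highest TPM over all transcripts of the joint list of 13, of which 9 reached 1 TPM in both libraries. Tkt had 18.8 and 19.1 TPM over protein-coding transcripts, below the values of the other 3 on either scale. Of 12 hypoxia-responsive genes 11 reached 1 TPM and 6 reached 10 TPM. Bnip3l, a mitophagy receptor gene also known from maturing red cells, had 329 TPM in replicate 2 and 344 TPM in replicate 1 over all transcripts, and 54.8 and 45.1 TPM over protein-coding ones, so the library that was higher changed. Hif1a, the hypoxia-inducible factor subunit, had 98.3 and 90.5 TPM. Car9, a carbonic anhydrase used as a hypoxia marker, had 0.260 and 0.320 TPM, and Vegfa 2.71 and 3.24 TPM.

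Between the 2 libraries the genes differed little. A gene was counted as different where 1 library stood at least 25% above the other. Of 39, 2 (5.13%) lay past this fold in either direction, against 23.3% of all 20125 genes tested and 4.66% of the 11608 genes at 5 TPM or more in both. Both were lower in replicate 2, where the background is 13.2% of all genes and 2.62% of the genes at 5 TPM or more. None was higher in replicate 2 past that fold, against 10.1% and 2.04%. The share of members is thus close to that of genes at 5 TPM or more, a set that was not matched to the members by level. The median log2 ratio over the 39 was -0.02, against 0.00 over all genes tested, with 18 genes above 0 and 21 below.

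Pgam2 differed most. On 98 counts in replicate 2 against 170 in replicate 1, its log2 ratio was -0.87, with a 95% counting interval of -1.26 to -0.52. Skeletal muscle markers moved with it: 10 of the 12 were lower past the same fold, with a median log2 ratio of -0.43. Those with the highest TPM were Actc1 (83.8 TPM in replicate 2 and 124 TPM in replicate 1), Acta1 (44.4 and 61.1 TPM) and Tnnt1 (45.9 and 58.8 TPM). The lowest ratio of the list was that of Myf5, named after its values were seen, at -1.09 on 109 counts in replicate 2 and 220 in replicate 1. Of the 12, Ckm was near 0 in both, at 0.280 and 0.160 TPM. Eno3, the muscle enolase, did not show this, with 422 counts in replicate 2 and 419 in replicate 1 and a log2 ratio of -0.08 (interval -0.28 to 0.12). The part of the muscle markers in the Pgam2 ratio was not tested.

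The second gene was Slc16a3, with 1150 counts in replicate 2 and 1356 in replicate 1 and a log2 ratio of -0.33 (interval -0.44 to -0.21). Its interval spans the threshold, at 0.3219 on the log2 scale, and with scaling to the spike-ins its ratio was -0.27, inside it. Slc16a1, its partner carrier, was just inside, at -0.29 (interval -0.39 to -0.18), on 1320 and 1514 counts. Both lactate carriers were therefore lower in replicate 2 by a like amount. Ldha was also lower there, but by less, at -0.17 (interval -0.20 to -0.14). Ldhb did not move with them, at 0.00 (interval -0.04 to 0.04).

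The largest ratios in the other direction were those of Eno2 and Dlat. Eno2 had 975 counts in replicate 2 against 763 in replicate 1, which gave a log2 ratio of 0.26 (interval 0.13 to 0.40). Dlat had 2814 and 2214 counts, also 0.26 (interval 0.18 to 0.34). Sensory ganglion markers, which are neuronal genes, were higher in replicate 2 as well: 8 of 10 were past the fold, with a median of 0.45 and a summed level of 432 TPM in replicate 2 and 316 TPM in replicate 1. Among them were Isl1 (148 and 105 TPM; also a motor neuron gene) and Ntrk2 (60.0 and 58.5 TPM). The 12 pan-neuronal markers had a median of 0.04, led by Tubb3 (982 and 953 TPM), Nefl (683 and 569 TPM) and Uchl1 (603 and 545 TPM, or 162 and 143 TPM over protein-coding transcripts), with 1 of them higher past the fold, Snap25, named after its values were seen. The part of these markers in the Eno2 and Dlat ratios was not tested.

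Many of the smaller ratios were larger than counting error. The counting interval lay wholly below 0 for 15 of 39 genes (38.5%), against 17.6% of genes at 5 TPM or more, and wholly above 0 for 8 (20.5%), against 20.8%. That background was not matched to the members by count, on which the width of an interval depends. In the later steps of glycolysis it lay below 0 for 5 of 8 genes, Gapdh (-0.11), Pgk1 (-0.13), Pgam1 (-0.04), Pgam2 and Pkm (-0.13), and above 0 for Eno2. At the lactate steps it lay below 0 for 3 of 4 genes. Of the 6 genes of the pyruvate dehydrogenase complex and its kinases it lay above 0 for the 3 enzyme subunits, Dlat, Pdha1 (0.18) and Pdhb (0.08), and held 0 for the 3 kinases. Among the citrate cycle genes Ogdh (0.13) and Sucla2 (0.11) lay above 0 and Idh2 (-0.11), Suclg1 (-0.07), Fh1 (-0.08) and Mdh2 (-0.04) below. With scaling to the spike-ins the members' ratios moved up by 0.06 at the median. The intervals then lay below 0 for 9 of 39 genes. The background there was 1020 of 11608 genes at 5 TPM or more (8.79%), a smaller share. They lay above 0 for 16 of 39 genes, against 4178 of 11608 (36.0%). Of the citrate cycle genes, only Idh2 (-0.05) then lay below 0. The intervals of Suclg1 (-0.02), Fh1 (-0.03) and Mdh2 (0.01) held 0, and those of Cs, Idh3a, Ogdh, Sucla2 and Mdh1 lay above. In the later steps of glycolysis Pgam1 then held 0 and Eno1 lay above 0. At the lactate steps Ldhb lay above 0. Under that scaling 7 ratios changed sign, those of Pgam1 and Mdh2 and, with intervals that held 0 before, Pfkm, Aldoa, Eno1, Pdk1 and Pdk2. These intervals cover counting error only, and with 1 pool on each side they do not show a difference between kinds of embryos.

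**Figure D4:**
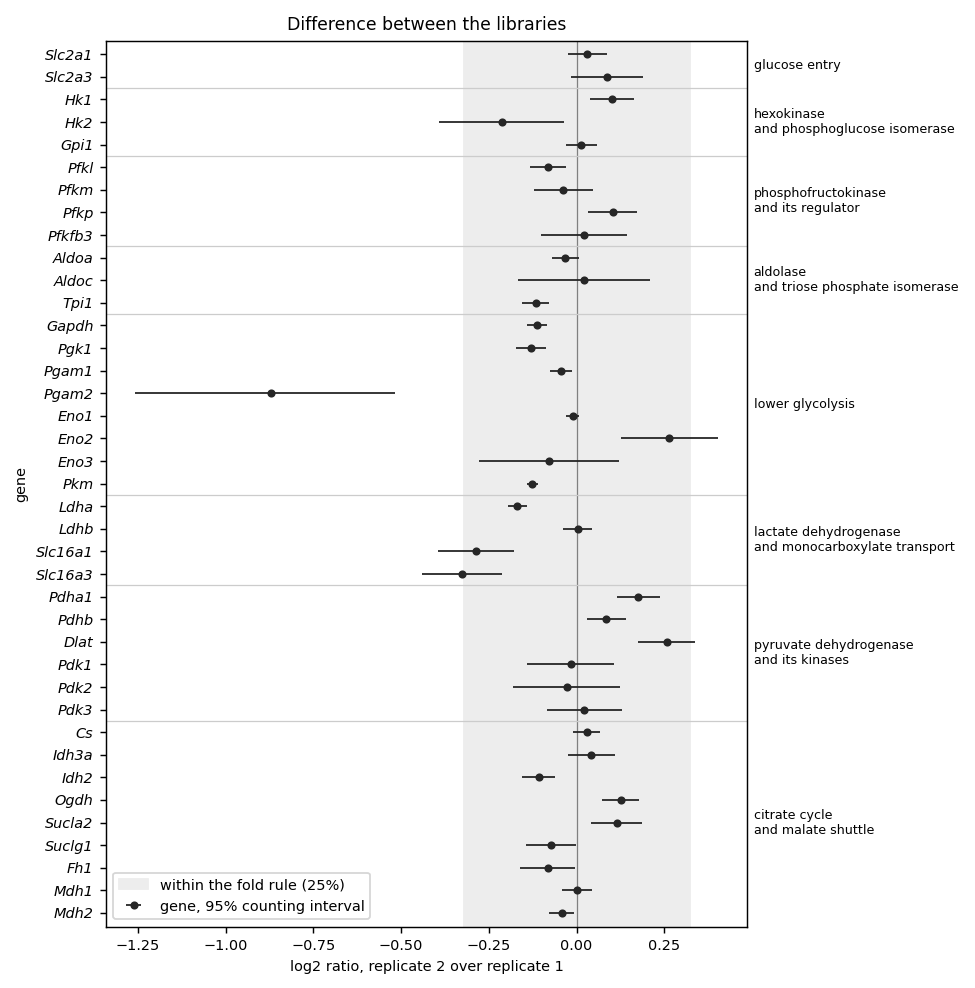
Log2 ratio of replicate 2 over replicate 1 for the 39 genes, with 95% counting intervals; the shaded band marks a difference of 25% in either direction. Pgam2 lies far to the left, Slc16a3 at the edge of the band, and the other 37 genes inside it.

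Several of the genes have processed pseudogenes, copies made from their RNA, which compete for the same reads. By alignment at 80% identity or more over 50% or more of the copy, 438 annotated pseudogenes copied 16 of the 39 genes, and 343 of them copied Gapdh. Ldha had 30 copies, Pkm 14, Eno1 12, Aldoa 11 and Pgk1 and Tpi1 7 each. The copies held 3409 estimated counts in replicate 2 and 3066 in replicate 1, or 1.06% and 0.979% of the counts on members and copies together. Of the copies, 239 had 0 counts in both libraries and 37 had 10 or more in both. For Gapdh the copies took 9.45% in replicate 2 and 7.77% in replicate 1, for Pgk1 4.87% and 5.58%, for Pgam1 2.11% and 1.34%, and for each other gene under 1%. A copy of Eno1 annotated as protein-coding, Eno1b, was found after its values were seen. It aligned at 99.5% identity and had 1072 counts in replicate 2 and 1171 in replicate 1.

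Which copy received the reads was not always settled. Pgk1-rs7 (chromosome 12) matched the Pgk1 transcript over all of its 1255 bases with 0 differences, and Gm5537 (chromosome 3) over all of its 1252 bases with 0 differences. Pgk1-rs7 had 8.59 counts in replicate 2 and 484 in replicate 1, and Gm5537 had 456 and 70.3. The 2 copies thus changed places between the libraries, while all 7 Pgk1 copies together had 467 counts in replicate 2 and 554 in replicate 1. Their deposited posterior SDs ran from 110 to 177 counts. Pgam1-ps2, also without a difference from Pgam1 over 765 bases, had 354 and 216 counts, with SDs of 62.4 and 60.5. Gm7336, with 1 differing base over 1230 aligned bases of Gapdh-203, had 285 and 312 counts in these tables and 0 in both under the older annotation release M4.

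Gm6560, a copy of Pkm on chromosome 5, is the opposite case, with 24 differing bases and 2 gaps over 1591 aligned bases. It had 125 counts in replicate 2 and 114 in replicate 1, with posterior SDs of 4.11 and 4.08. A stretch of 100 coding bases from exon 5 of Pkm-201 is shown with the same stretch of Gm6560, as the kind of difference that separates their reads. It is the stretch within 1 coding exon with the most differing positions, both sequences are from GENCODE M21 transcripts on mm10, 5′ to 3′, and capitals mark the 4 positions that differ.
Pkm, chr9:59668913-59669012, plus strand: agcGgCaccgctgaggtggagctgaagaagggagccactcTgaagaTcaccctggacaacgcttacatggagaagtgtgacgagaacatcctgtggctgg
Gm6560, chr5:22725691-22725790, minus strand: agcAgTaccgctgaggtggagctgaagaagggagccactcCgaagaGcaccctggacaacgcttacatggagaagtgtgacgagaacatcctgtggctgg
The posterior SD of the gene count was 10 or more in both libraries for 5 of the 39 genes and 0 in both for 24.

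**Figure D5:**
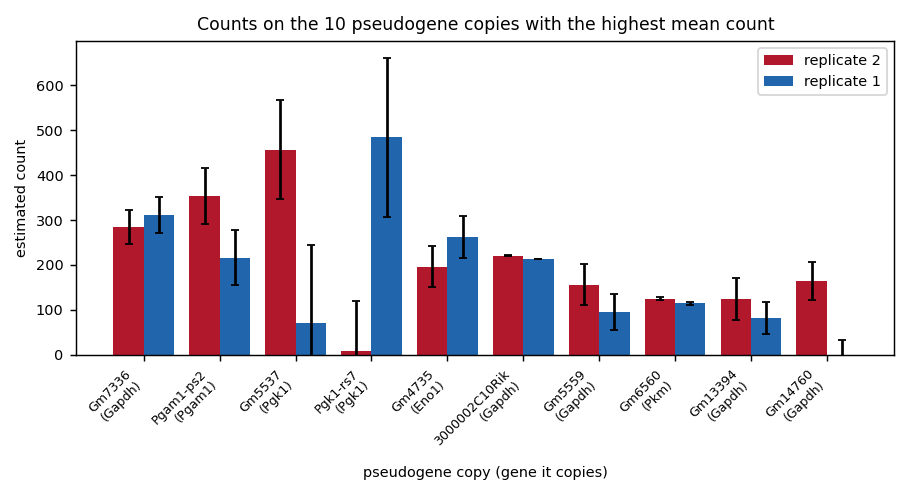
Estimated counts on the 10 pseudogene copies with the highest mean count in replicate 2 (red) and replicate 1 (blue), each with the gene it copies; error bars are the deposited posterior SDs. Gm5537 and Pgk1-rs7 change places between the libraries, while 3000002C10Rik and Gm6560 have small SDs and like counts in both.

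Reads were not kept apart by strand in any step the labels name, so reads in overlapping exons may fit more than 1 gene. How many reads did so was not measured. Exons of 11 members overlap exons of another gene, for 10 of them on the opposite strand. The overlap covers 10% or more of the exonic bases, with a partner of 10 or more counts, for 4 genes. For Pkm it is 15.3%, with Gm49759 on the same strand (1041 counts in replicate 2 and 921 in replicate 1). For Pdha1 it is 16.1% with Map3k15 (16.6 and 17.7 counts) and for Gpi1 11.5% with Gm26762 (123 and 91.5 counts). For Pfkm it is 10.2% with Gm26513 (14.3 and 17.3 counts). By place in the genome, 7 of the 39 genes lie on chromosome 6 and 7 on chromosome 11, the largest counts of any chromosome. The shares of all genes on these chromosomes were not computed, so no clustering is read from these counts. On chromosome 6, Eno2, Tpi1 and Gapdh lie in that order between 124760053 and 125166467.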

How the data were processed

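Polyadenylated RNA of 2 pools of embryonic day 12.5 neural tube was measured, replicate 2 (88 embryos) and replicate 1 (120 embryos); separate pools per the labels, so the spread is that of 2 pools. Per the notes deposited with the libraries, reads were aligned to mm10 and quantified against GENCODE M21 and M4; which aligner and quantifier ran is not given in the sources used here. The authors deposited, per the file headers, an estimated count, a TPM and posterior values per gene, and the percent of a gene's TPM held by each transcript. Reads that match several places are shared out by an estimate, which makes counts of near-identical copies uncertain. Spike-ins and tRNA rows were kept out of library sizes here; rows other than genes took 2.89% of estimated counts in replicate 2 and 2.99% in replicate 1.

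The 39 members and all lists were chosen with earlier results of these data known. Pc was found as Pcx and Drgx as Prrxl1. Levels are deposited TPM, mean ± SD (n = 2). For replicate 2 over replicate 1, counts were rounded, genes with 10 or more counts in either library kept, and log2 ratios computed on all 20125 genes with TMM in edgeR 4.0.16 (R 4.3.3) and a prior count of 2; intervals are exact 95% conditional binomial and cover counting error only, and PCR copies count as reads. The fold (the higher library at least 25% above the lower) is a rule, not a test, and no p-value was computed. The ratio script was tested on simulated data. Copies were found with blastn 2.17.0 at 80% identity over 50% of the pseudogene transcript; Biopython 1.88 aligned single copies. Pkm transcripts were classed by exon coordinates. Python 3.11.15, numpy 2.4.6, pandas 2.3.3 and matplotlib 3.10.9 were used, and DESeq2 1.42.0 for an alternative scaling.

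Named are all members; of each pathway list up to 6 highest and 3 lowest and any past that fold; up to 3 of each marker list; up to 10 copies; and per member its leading transcript and others at 20% or more in both libraries. A few transcripts and genes under this rule are not reported here, and isoenzymes, partner subunits and carriers outside these ranks were named beside the members they belong with.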

Additional observations from a re-analysis of the deposited data

How the results depend on the processing

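All 39 genes stayed at 1 TPM or more under each alternative run, also at thresholds of 0.5 and 5 TPM, and 15 to 17 reached 100 TPM. Hk1 over Hk2 was 3.52 with protein-coding transcripts (chosen after seeing the data) and Eno1 over Eno2 6.52, or 5.63 with posterior mean TPM. Aldoa over Aldoc was 4.71 with a pseudocount of 1 TPM, 4.68 with posterior mean TPM and 4.87 with protein-coding transcripts. No ratio within an isoenzyme or transporter pair changed sign. Ratios between the libraries did, for 7 genes with spike-in scaling, 5 with deposited TPM and 2 in the M4 tables. Past the fold rule lay 1 gene (lower, Pgam2) with spike-in scaling. At a fold of 1.1, 8 did (3 higher, 5 lower), and at 1.5, 1 did (lower). The share of all genes past the rule was not computed at these folds or with spike-in scaling, so these counts have no background. The median log2 ratio ran from -0.02 to 0.04. The M2 share of Pkm was 71.5% in the M4 tables and 73.6% by estimated counts (added later). The share on copies was 1.37% with Eno1b added. Leaving out replicate 1 or 2 gave 2.54 to 2.99 for Hk1 over Hk2, 5.68 to 5.82 for Eno1 over Eno2, 4.80 to 4.82 for Aldoa over Aldoc, 0.74 to 0.91 for Ldha over Ldhb, 69.4% to 70.1% for the M2 share and 0.979% to 1.06% for the copies. Of the further 4 pairs, 7 values moved by more than 1 SD. The cause of these shifts was not tested, beyond what each setting changes by construction. Between releases Idh3a (-0.21), Gpi1 (-0.12), Slc2a1 (0.12), Pdhb (-0.09) and Eno1 (0.08) differed most, as log2 of M4 over M21. No paired analysis was possible because there is 1 group. With 2 pools, variation between single embryos was not measured.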

Other observations

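Some genes of the pathway lists outside the 39 stood at least 25% apart between the libraries, most of them on few counts. Among them, Hkdc1 had 26 counts in replicate 2 and 9 in replicate 1, Fbp1 22 and 4, Pdk4 40 and 27, and Pklr 14.0 and 20.5. Tigar had 431 and 312 counts, a log2 ratio of 0.38 with a counting interval of 0.16 to 0.59.

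The pseudogene counts also depend on the annotation release. In the M4 tables Pgk1-rs7 had 776 counts in replicate 2 and 912 in replicate 1, against 8.59 and 484 in the M21 tables. Gm4735, a copy of Eno1, had 632 and 745 in M4, against 196 and 263 in M21. Gm6560 has no value in the M4 tables.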
